A study of Mus musculus with 10 samples.

Results

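The primitive endoderm genes described here are the 10 listed genes Gata4, Gata6, Sox7, Sox17, Foxa2, Hnf4a, Pdgfra, Dab2, Cubn and Sparc, taken by symbol from the 20325 genes of the expression table and followed across all 10 libraries. All 10 genes were present in the table. The list came from their known use as lineage genes, and it was chosen with earlier results of these data known. Of the 10 genes, 7 reached at least 1 CPM (the read count scaled to a common library total) in at least 2 libraries and entered the tests with 13201 genes in all, whereas Sox7, Foxa2 and Cubn did not.

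Primitive endoderm is the epithelial layer that forms on the surface of the inner cell mass of the blastocyst and gives rise to the visceral and parietal endoderm of the yolk sacs. FGF signalling through ERK induces Gata6, which opposes Nanog, and Gata4, Sox17 and Sox7 follow as the cells commit. Mouse embryonic stem cells (mESCs) correspond to the epiblast, and in serum a minority of cells turns on primitive endoderm genes, while inhibition of MEK holds this programme low. PDGFRA marks the lineage from early on, DAB2 and cubilin serve endocytosis in visceral endoderm, and SPARC is a matrix protein that parietal endoderm makes in large amounts.

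PolyA RNA was sequenced from 5 mESC lines, each with 2 libraries described as biological replicates. Daxx-/- mESCs are of 129/SvEv strain and lack the H3.3 chaperone DAXX, and the Daxx-/-;WT line is the same line with a lentiviral wild-type Daxx transgene. H3.3 KO mESCs are of mixed 129 x C57BL/6J origin, and were used without a transgene, with wild-type H3.3 (H3.3 KO;WT) or with an H3.3 mutant, spelled L126A-L130A in the labels and L126A-I130A in the study's text, that was designed not to be deposited into chromatin (H3.3 KO;mutant). All lines grew without feeders in 2i + LIF medium, which holds the GSK3 inhibitor CHIR99021 and the MEK inhibitor PD0325901. The transgenes were delivered with lentivirus and puromycin selection, and each knockout is represented by 1 parental line, so genotype, strain and line origin cannot be told apart between Daxx-/- and H3.3 KO. With 2 libraries a line, the tests measure the spread between these libraries.

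Library totals ran from 15463625 to 21396585 expected counts, at which 3 counts corresponded to at most 0.194 CPM. The 9 stem cell markers found in the table summed to between 3534 and 5638 CPM in the 10 libraries. Daxx was at 74.4 and 77.3 CPM in the libraries labelled Daxx-/-, at 195 and 208 CPM with the Daxx transgene and at 61.5 to 96.7 CPM in the H3.3 lines, so gene-level counts did not show a loss of Daxx RNA in Daxx-/- and do not check that label. H3f3a was at 2.94 to 11.4 CPM in the H3.3 lines and at 390 to 498 CPM in the Daxx lines. H3f3b, the other H3.3 gene, was at 525 and 749 CPM in H3.3 KO and was not low there. The lines are therefore named as labelled throughout.

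Sparc was the only abundant member. Counts were divided by the combined exon length of each gene to compare levels between genes, and on this scale the median over the 10 libraries was 78.8 CPM per kb for Sparc, 0.991 for Gata4, 0.553 for Hnf4a, 0.233 for Sox17, 0.230 for Dab2, 0.137 for Gata6 and 0.106 for Pdgfra. Sox7, Foxa2 and Cubn were lowest, with medians of 0.0594, 0.0390 and 0.0219 CPM per kb. Sox17 and Dab2 had nearly the same median, and each varied over the libraries by more than the gap between them. Sox17, Dab2, Gata6 and Pdgfra overlapped in their ranges over libraries. Sparc thus lay apart from the genes for lineage transcription factors. Visceral endoderm genes ranged widely: of the 23 listed, 14 entered the tests, Apoe, which encodes an apolipoprotein, was at 231 to 1395 CPM, and Afp, Ttr and Apoa1, which encode secreted serum proteins, did not exceed 0.363 CPM in any library. In bulk RNA, fewer cells with these transcripts and less RNA per cell cannot be told apart.

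**Figure D1:**
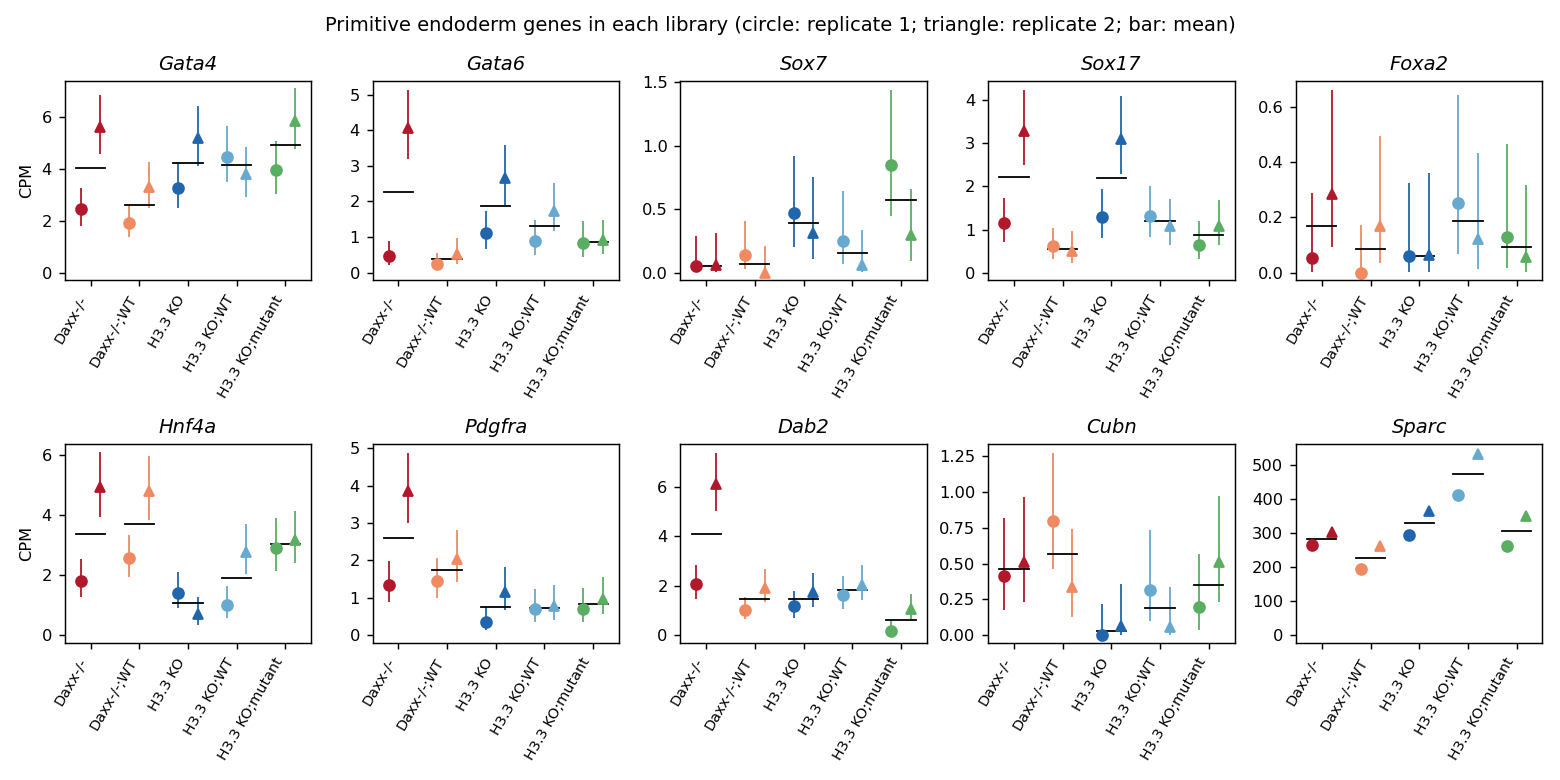
Each panel plots 1 gene, with CPM on the vertical axis and the 5 mESC lines on the horizontal axis; circles are replicate 1, triangles replicate 2, coloured lines the exact 95% Poisson interval of each library (counting error only) and black bars the mean of 2 libraries. Replicate 2 of Daxx-/- holds the highest value of Gata6, Sox17, Hnf4a, Pdgfra and Dab2, and Sparc is highest in the H3.3 KO;WT libraries at 412 and 533 CPM.

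From RefSeq's table of GRCm38.p6, 10 start sites of 6 members were used (Foxa2, Hnf4a, Pdgfra, Dab2, Cubn and Sparc). For the members among these that entered the tests, the 250 bases before the first listed start are shown. Which start gave rise to the RNA was not tested. The sequences read 5′ to 3′ on the strand of the gene and end at the base before the start. GATA factors are known to bind the letters AGATAA or TGATAA, and also the letters AGATAG or TGATAG. Any of these 4 strings is in capitals, on either strand.
Pdgfra (chr5:75152001-75152250, plus strand): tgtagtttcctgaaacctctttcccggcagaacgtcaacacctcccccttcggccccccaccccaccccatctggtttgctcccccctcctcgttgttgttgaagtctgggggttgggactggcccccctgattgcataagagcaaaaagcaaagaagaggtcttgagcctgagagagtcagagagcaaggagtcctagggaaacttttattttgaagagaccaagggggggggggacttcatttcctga
Dab2 (chr15:6299539-6299788, plus strand): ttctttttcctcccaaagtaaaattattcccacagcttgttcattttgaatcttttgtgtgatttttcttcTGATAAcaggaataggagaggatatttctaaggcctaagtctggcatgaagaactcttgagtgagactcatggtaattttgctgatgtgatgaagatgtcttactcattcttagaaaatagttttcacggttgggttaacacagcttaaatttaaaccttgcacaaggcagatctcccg
Hnf4a (chr2:163506607-163506856, plus strand): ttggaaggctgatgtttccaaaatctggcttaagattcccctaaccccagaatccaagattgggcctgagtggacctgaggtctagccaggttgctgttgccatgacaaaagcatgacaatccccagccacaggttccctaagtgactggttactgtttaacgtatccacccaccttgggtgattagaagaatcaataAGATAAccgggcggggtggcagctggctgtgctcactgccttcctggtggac
Sparc (chr11:55420081-55420330, minus strand): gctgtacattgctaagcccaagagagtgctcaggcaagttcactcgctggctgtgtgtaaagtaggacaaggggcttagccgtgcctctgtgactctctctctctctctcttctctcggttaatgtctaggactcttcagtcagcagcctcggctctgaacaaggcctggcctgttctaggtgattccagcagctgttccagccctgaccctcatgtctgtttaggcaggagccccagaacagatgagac
Of the 10 windows, 3 held a GATA match: the first start of Dab2 (TGATAA at position -179 from the start), the first start of Hnf4a (AGATAA at position -52) and the third start of Foxa2 (AGATAA at position -183). Among the 32851 windows of 250 bases that were searched, 26.5% held one. The SOX motif AACAAT, on either strand, was found in 0 of the 10 windows, against 9.42% of the 32851 windows. The windows of Pdgfra and Sparc, and of the second starts of Dab2 and Hnf4a, held neither. Gata4, Gata6, Sox7 and Sox17 had no window among those searched, so their start sites were not examined. Sites of the members beyond the 10 windows and distal elements were not searched.

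Replicates of 1 line differed for these genes, most of all in Daxx-/-. In Daxx-/- replicate 2, all 7 tested members were above replicate 1 (57.7% of all tested genes), and 6 of 7 (all but Sparc) were at least 2-fold above it on the scale of CPM + 0.1. Over all tested genes, 14.1% were at least 2-fold above replicate 1 in this line. Gata6 was at 0.467 CPM in replicate 1 and 4.08 CPM in replicate 2, from 9 and 72 counts. Dab2 was at 2.08 and 6.11 CPM, Pdgfra at 1.35 and 3.85 CPM, and Sox17 at 1.14 and 3.28 CPM. The ratio of Gata6 was 7.37-fold, above that of 99.4% of all tested genes, and the ratios of Sox17, Hnf4a, Pdgfra, Dab2 and Gata4 lay between 2.25-fold and 2.86-fold. Sparc differed by 1.14-fold. The median log2 ratio of the 7 members was 1.45, against 0.11 for all tested genes.

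Replicate 2 was also above replicate 1 for most members in the other lines: 6 of 7 in Daxx-/-;WT (60.1% of all tested genes), 6 of 7 in H3.3 KO (51.7%), 5 of 7 in H3.3 KO;WT (60.3%) and 7 of 7 in H3.3 KO;mutant (61.5%). The median log2 ratio of the members was lower there than in Daxx-/-, at 0.75, 0.64, 0.31 and 0.42 in this order, although single members had larger ratios elsewhere, such as Dab2 with 4.01-fold in H3.3 KO;mutant and Pdgfra with 2.80-fold in H3.3 KO. The number of members at least 2-fold higher in replicate 2 was 0 of 7 in Daxx-/-;WT (6.04% of all tested genes), 3 of 7 in H3.3 KO (Pdgfra, Sox17 and Gata6; 3.25%), 1 of 7 in H3.3 KO;WT (Hnf4a; 3.08%) and 1 of 7 in H3.3 KO;mutant (Dab2; 11.2%). The labels do not say whether replicates of the same number were handled together, and the part of a shared replicate effect in these ratios was not tested.

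**Figure D2:**
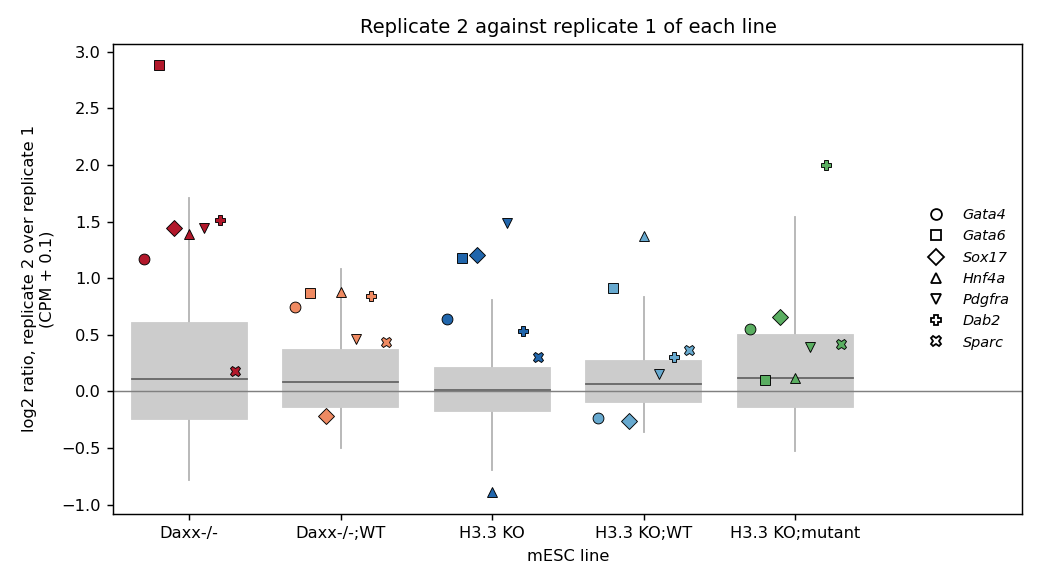
The vertical axis is the log2 ratio of replicate 2 over replicate 1 (CPM + 0.1) and the horizontal axis the 5 lines; symbols are the 7 tested members, grey boxes the range from the 25th to the 75th percentile of all 13201 tested genes with their median as a line, and thin lines the range from the 5th to the 95th percentile. In Daxx-/- 6 members lie above a ratio of 2, with Gata6 highest at 2.88 on the log2 scale.

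Other gene groups also differed between the Daxx-/- libraries. Of the parietal endoderm and basement membrane genes, 8 of 18 tested were at least 2-fold above replicate 1 in Daxx-/- replicate 2, as were 7 of 14 visceral endoderm genes and 6 of 12 relatives of the members (other GATA, FOXA, HNF and SPARC family genes among them). Of these lists, 1 parietal endoderm gene was at most at 0.5 of its level in replicate 1. Of the FGF and PDGF signalling genes, 2 of 22 were at least 2-fold higher (Fgfr4 and Pdgfrb), against 14.1% of all tested genes. At least 2-fold lower were 5 of 22 (Klb, Pdgfc, Spry4, Dusp6 and Etv4), against 2.7%. Fgfr4 was at 1.66 and 12.4 CPM in replicates 1 and 2, and Pdgfrb at 1.82 and 9.96 CPM. Dusp6, an ERK phosphatase and ERK target, was at 14.2 and 5.89 CPM. The counts of genes at least 2-fold higher were 3 of 13 for endocytic partners of cubilin and DAB2, and 0 of 9 for the stem cell markers, with 0 lower in both. The lists overlap, and some of the genes at least 2-fold higher were counted in more than 1 list. Trophoblast markers summed to 4.20 CPM in replicate 1 and 23.6 CPM in replicate 2, with 1.94 to 11.1 CPM in the other lines. Krt7, a keratin of simple epithelia, went from 1.25 to 11.9 CPM, and Ascl2, a trophoblast transcription factor, from 2.44 to 9.79 CPM. Both were also at least 2-fold higher in replicate 2 of Daxx-/-;WT and of H3.3 KO;mutant. Neither was in H3.3 KO or H3.3 KO;WT. Of the 7 trophoblast markers in the table, 3 were at 3 counts or fewer in both Daxx-/- libraries. Fibroblast markers summed to 29.0 and 48.9 CPM in Daxx-/-, against 6.79 to 20.4 CPM in the other lines, with 7 of 12 markers at 3 counts or fewer in Daxx-/-. The sum was held mainly by Thy1, a surface glycoprotein also made outside fibroblasts, at 29.4 ± 10.5 CPM (SD, n = 2). The part of other cell types in the levels of the primitive endoderm genes was not tested.

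The genes whose levels followed the members most closely over the 10 libraries were chosen by the highest Pearson correlation with the mean z-score of the 7 tested members, out of 13201 genes and with no test. They were Hgsnat (r = 0.974), Ctsh (0.966), Adamts17 (0.963), Wnt7b (0.958) and Klhl26 (0.958). The mean z-score was 1.51 in Daxx-/- replicate 2 and between -0.83 and 0.40 in the other 9 libraries, so this likeness rests largely on 1 library. Hgsnat, a lysosomal acetyltransferase gene, was at 9.13 and 31.8 CPM in Daxx-/- and at 5.94 to 14.8 CPM in the other lines. Wnt7b, a WNT ligand gene, was at 0.156 and 2.89 CPM in Daxx-/- and at most 1.02 CPM elsewhere.

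The first comparison asked how the members differed once DAXX was put back into mESCs labelled Daxx-/-. Of the 7 tested members, 6 had lower fitted levels in Daxx-/-;WT, with a median log2 fold change of -0.62 against -0.02 for all genes, but 0 of 7 were called by edgeR at an adjusted p under 0.05 and at least 2-fold. By this rule 1.08% of all tested genes were called. DESeq2 called 0 of 7 as well (4.02% of all tested genes), and 2 of 7 (Gata6 and Sox17) had an unadjusted p under 0.05 by each tool, as had 21.8% of all tested genes by edgeR. Dab2, Sox17 and Sparc were lower in both rescue libraries than in both Daxx-/- libraries, as were 23% of all tested genes, and 0 of 7 were higher without overlap (24.5% of all tested genes).

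Gata6, the factor that starts the primitive endoderm programme, was at 0.467 and 4.08 CPM in Daxx-/- and at 0.234 and 0.509 CPM in Daxx-/-;WT. The value of Daxx-/- replicate 1 fell within the range of the rescue, so the lines overlapped. The log2 fold change was -2.57 with a standard error (SE) of 0.95, a 95% interval from -4.72 to -0.42 and an edgeR adjusted p of 0.169. Sox17, a SOX F factor of endoderm, was at 1.14 and 3.28 CPM in Daxx-/- and at 0.608 and 0.509 CPM with DAXX, without overlap. Its log2 fold change was -1.93 (SE 0.65, edgeR adjusted p = 0.141).

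Dab2, an endocytic adaptor, was at 2.08 and 6.11 CPM in Daxx-/- and at 1.03 and 1.92 CPM with DAXX (log2 fold change -1.45, SE 0.69, edgeR adjusted p = 0.256). Sparc was at 266 and 302 CPM in Daxx-/- and at 193 and 262 CPM with DAXX, which is a log2 fold change of -0.32 (SE 0.18, edgeR adjusted p = 0.333). Both genes were lower in each rescue library, Sparc by the narrower margin. Gata4, which acts with Gata6, was at 2.44 and 5.61 CPM against 1.92 and 3.28 CPM, Pdgfra, the PDGF receptor of the lineage, at 1.35 and 3.85 against 1.45 and 2.04 CPM, and Hnf4a, a nuclear receptor of visceral endoderm, at 1.82 and 4.93 against 2.57 and 4.80 CPM. The lines overlapped for all 3 genes, with log2 fold changes of -0.62, -0.55 and 0.15.

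These values depended on which Daxx-/- library was used. Without replicate 2, the log2 fold change of Gata6 was -0.42, of Sox17 -1.08, of Dab2 -0.57 and of Gata4 0.01. Pdgfra was then at 0.29 and Hnf4a at 0.94. Without replicate 1, Gata6 was at -3.40 and Sox17 at -2.47. In these fits the single Daxx-/- library was assumed to vary like the other lines, so only log2 fold changes are given. Sparc stayed at -0.30 and -0.35 without replicate 2 and replicate 1, respectively.

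Wild-type H3.3 in H3.3 KO mESCs left the members with a median log2 fold change of 0.01, against 0.02 for all genes. edgeR called 0 of 7 members (0.25% of all tested genes) and DESeq2 0 of 7 (1.61%), and 1 member, Sparc, had an unadjusted p under 0.05 by each tool (13.3% of all tested genes by edgeR). Sparc was at 295 and 363 CPM in H3.3 KO and at 412 and 533 CPM in H3.3 KO;WT. Both rescue libraries were higher, as were those of 25.9% of all tested genes. Means were 329 ± 48.4 and 473 ± 85.2 CPM (SD, n = 2), and the log2 fold change was 0.55 (SE 0.18, edgeR adjusted p = 0.256), below 2-fold. The libraries of the other 6 tested members overlapped, while 29.7% of all tested genes were lower without overlap. Sox17 was at 1.29 and 3.10 CPM in H3.3 KO and at 1.32 and 1.08 CPM with wild-type H3.3, and Gata6 at 1.11 and 2.65 against 0.880 and 1.75 CPM. Gata4 was at 3.27 and 5.17 CPM against 4.46 and 3.79 CPM, with a log2 fold change of 0.01 (95% interval -1.02 to 1.03).

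The mutant H3.3 was compared with H3.3 KO in the same way. edgeR and DESeq2 each called 0 of 7 members (0.788% of all tested genes by edgeR, 3.36% by DESeq2), and 1 of 7, Hnf4a, had an unadjusted p under 0.05 by each tool (16.9% by edgeR). Hnf4a was at 1.40 and 0.710 CPM in H3.3 KO and at 2.91 and 3.18 CPM with the mutant, so that both mutant libraries were higher, as for 22% of all tested genes. The log2 fold change was 1.57 (SE 0.65, 95% interval 0.11 to 3.02, edgeR adjusted p = 0.263). Dab2, Gata6 and Sox17 were lower in both mutant libraries, as were 27% of all tested genes, with log2 fold changes of -1.13, -1.04 and -1.28 and SE of 0.75, 0.89 and 0.64.

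Dab2 was at 1.17 and 1.74 CPM in H3.3 KO and at 0.194 and 1.08 CPM with the mutant, the lower of which came from 3 counts. Gata6 was at 1.11 and 2.65 CPM against 0.841 and 0.908 CPM, and Sox17 at 1.29 and 3.10 against 0.647 and 1.08 CPM. The mutant libraries lay close together for Gata6 and apart for Dab2. Both H3.3 rescue comparisons share the H3.3 KO libraries. For Sox17 the log2 fold change was -0.82 with wild-type H3.3 and -1.28 with the mutant, and for Sparc 0.55 and -0.06.

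The mutant and the wild-type rescue were therefore compared directly. edgeR called 0 of 7 members (0.515% of all tested genes), DESeq2 0 of 7 (2.45%), and Sparc alone had an unadjusted p under 0.05 by each tool (12.3% by edgeR). Sparc was at 262 and 349 CPM with the mutant and at 412 and 533 CPM with wild-type H3.3, without overlap, and the log2 fold change was -0.61 (SE 0.18, 95% interval -1.02 to -0.20, edgeR adjusted p = 0.202). Dab2 (log2 fold change -1.50) and Sox17 (-0.46) were lower in both mutant libraries too, as were 24.2% of all tested genes. Hnf4a was the 1 member that was higher in both mutant libraries, as were 21.4% of all tested genes, with a log2 fold change of 0.72 (SE 0.62).

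**Figure D3:**
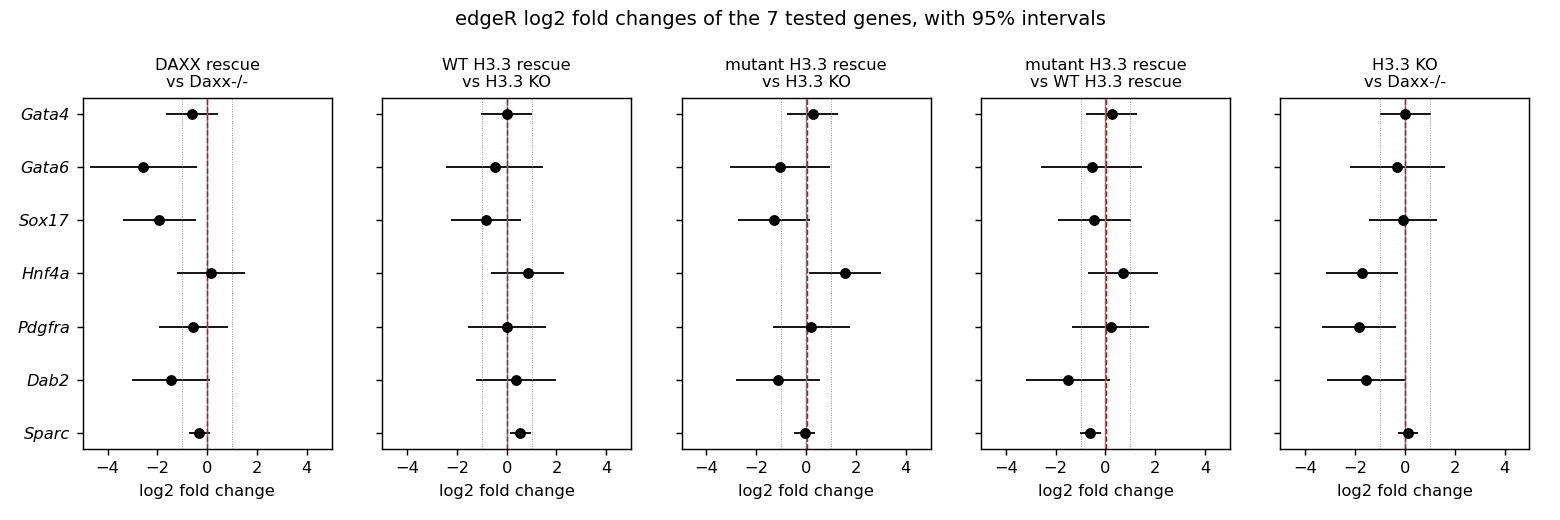
Log2 fold changes (horizontal axis) of the 7 tested members (vertical axis) in 5 comparisons, with 95% intervals from edgeR; the dashed line is the median of all tested genes and the dotted lines mark 2-fold. Intervals of the low genes span several units, as for Gata6 in the DAXX rescue (-4.72 to -0.42), and those of Sparc are narrow, as in the wild-type H3.3 rescue (0.14 to 0.96).

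The change with DAXX was also tested against the change with H3.3, which compares 2 rescues in 2 lines. For DAXX against wild-type H3.3, edgeR and DESeq2 each called 0 of 7 members (0.0455% of all tested genes by edgeR, 1.98% by DESeq2), and 1 of 7, Sparc, had an unadjusted p under 0.05 by each tool (13.9% by edgeR). The difference for Sparc was -0.87 on the log2 scale (SE 0.26, edgeR adjusted p = 0.224), from a change of -0.32 with DAXX and 0.55 with wild-type H3.3. The difference for Gata6 was -2.09 (SE 1.28, edgeR adjusted p = 0.486), and without Daxx-/- replicate 2 it was 0.06. For DAXX against the mutant, edgeR called 0 of 7 (0.0227% of all tested genes), DESeq2 0 of 7 (1.24%), and 0 of 7 had an unadjusted p under 0.05 by either tool (11.2% by edgeR). The largest differences among the members were those of Gata6 (-1.53, SE 1.29) and Hnf4a (-1.42, SE 0.88).

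The H3.3 KO and Daxx-/- mESCs, which differ in strain and origin as well as genotype, were compared last. edgeR called 0 of 7 members, against 11.7% of all tested genes, and DESeq2 called 0 of 7, against 13%. By edgeR 2 of 7 (Pdgfra and Hnf4a) and by DESeq2 3 of 7 (with Dab2) had an unadjusted p under 0.05, as had 38% of all tested genes by edgeR. Pdgfra, Hnf4a and Dab2 were lower in both H3.3 KO libraries than in both Daxx-/- libraries, as were 25.9% of all tested genes, and 0 of 7 were higher without overlap (36.1% of all tested genes). Markers of other cell types were also called in this comparison. Thy1 was lower in H3.3 KO (log2 fold change -2.11, edgeR adjusted p = 0.00839), as was Ascl2 (-2.94, edgeR adjusted p = 0.0309), and Tbx3, a transcription factor gene on the stem cell marker list, was higher (1.15, edgeR adjusted p = 0.00485). Tbx3 was at 195 and 172 CPM in Daxx-/- and at 345 and 525 CPM in H3.3 KO, and Thy1 had means of 29.4 ± 10.5 against 7.15 ± 0.887 CPM (SD, n = 2). Of 10 fits that each left out 1 library, Thy1 and Tbx3 were called in 9, all but that without H3.3 KO replicate 2, and Ascl2 in 5, not without Daxx-/- replicate 2 or either library of H3.3 KO or of H3.3 KO;WT. These were 1 of 3 tested fibroblast markers, 1 of 2 trophoblast markers, 1 of 9 stem cell markers and 0 of 5 mesendoderm markers, and their part in the levels of the members was not tested.

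Pdgfra was at 1.35 and 3.85 CPM in Daxx-/- and at 0.351 and 1.16 CPM in H3.3 KO (log2 fold change -1.84, SE 0.66, 95% interval -3.33 to -0.35, edgeR adjusted p = 0.0729). All 4 libraries of the Daxx lines, rescue included, were above all 6 libraries of the H3.3 lines, which ran from 0.351 to 1.16 CPM. Over all tested genes, 9.8% were above in this way. In the H3.3 lines Pdgfra reached 1 CPM only in replicate 2 of H3.3 KO, so it passed the filter through the Daxx lines. Its place among the tested genes therefore depended on the lines in which it was high. Hnf4a was at 1.82 and 4.93 CPM in Daxx-/- and at 1.40 and 0.710 CPM in H3.3 KO (log2 fold change -1.72, SE 0.64, edgeR adjusted p = 0.0843), and the mutant rescue of H3.3 KO lay within the range of the Daxx lines. Dab2 had a log2 fold change of -1.54 (SE 0.70, edgeR adjusted p = 0.138). Gata4, Gata6, Sox17 and Sparc overlapped between the lines, with log2 fold changes of 0.01, -0.31, -0.07 and 0.13.

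Without Daxx-/- replicate 1, the log2 fold change in this comparison was -2.38 for Pdgfra and -2.23 for Hnf4a. Without Daxx-/- replicate 2 the values were -0.99 and -0.91. Gata6 then turned to 1.84 (SE 0.83) and Sox17 to 0.78. Gata6 and Sox17 thus changed direction between the lines with the Daxx-/- library that was left out.

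Sox7, Foxa2 and Cubn were too low for the tests, and counts are given for them. Sox7, the SOX F partner of Sox17, had 1 and 1 counts in Daxx-/-, 3 and 0 in Daxx-/-;WT, 8.01 and 4.86 in H3.3 KO, 4 and 1 in H3.3 KO;WT and 13.11 and 5.19 in H3.3 KO;mutant. It was at or below 3 counts in all 4 Daxx-line libraries and above that in both libraries of H3.3 KO and of the mutant rescue. Summed over 2 libraries, it had 2 counts in Daxx-/- and 13 in H3.3 KO, a ratio of 0.136 once scaled to library totals (95% counting interval 0.0149 to 0.600).

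Cubn, which encodes the endocytic receptor cubilin, had 8 and 9 counts in Daxx-/-, 17 and 6 in Daxx-/-;WT, 0 and 1 in H3.3 KO, 5 and 1 in H3.3 KO;WT and 3 and 9 in H3.3 KO;mutant. With 17 counts in Daxx-/- and 1 in H3.3 KO, the ratio scaled to library totals was 15, with a 95% counting interval from 2.35 to 627. Foxa2, a forkhead factor of endoderm, had at most 5 counts in any library, 1 and 5 in Daxx-/- and 1 and 1 in H3.3 KO, and a difference between lines was not detectable at this depth. The intervals cover counting error only and compare these libraries. With no filter on low counts, edgeR adjusted p for the 3 genes between H3.3 KO and Daxx-/- were 0.0691 for Cubn, 0.177 for Sox7 and 0.581 for Foxa2, and none was called.

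Among fixed lists of genes around the members, few passed the edgeR call. In the DAXX rescue, where 0.288% of all tested genes were called higher and 0.795% lower, 0 of 18 parietal endoderm and basement membrane genes, 1 of 14 visceral endoderm genes, 0 of 22 FGF and PDGF signalling genes, 1 of 13 endocytic partners and 0 of 12 relatives were called. By DESeq2, which called 4.02% of all tested genes, the counts were 2, 1, 0, 1 and 1. Emb, which encodes the adhesion protein embigin, fell from 51.1 and 48.6 CPM in Daxx-/- to 16.8 and 21.7 CPM with DAXX (log2 fold change -1.38, edgeR adjusted p = 0.0399). Lrpap1, the chaperone of LRP receptors, rose from 51.8 and 36.5 CPM to 138 and 104 CPM (log2 fold change 1.45, edgeR adjusted p = 0.0483). Of 10 fits that each left out 1 library, Emb was called in 5 and Lrpap1 in 1. Emb was lost without Daxx-/- replicate 2 and without either library of Daxx-/-;WT or of H3.3 KO;WT, and Lrpap1 was called only without Daxx-/- replicate 1. Median log2 fold changes of the lists were -0.40, -0.64, 0.19, -0.29 and -0.56, beside -0.02 for all genes.

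Between H3.3 KO and Daxx-/-, where 5.71% of all tested genes were called higher and 5.97% lower, the lists held 0 higher and 1 lower of 18, 0 and 1 of 14, 1 and 1 of 22, 0 and 2 of 13 and 0 and 1 of 12, in the same order. Col4a1, the collagen IV chain of basement membranes, fell from 34.5 and 56.7 CPM in Daxx-/- to 11.8 and 19.2 CPM in H3.3 KO (log2 fold change -1.63, edgeR adjusted p = 0.00614). Lrp2, which encodes megalin, the partner receptor of cubilin, was counted in 2 of the lists and fell from 38.7 and 35.4 CPM to 10.1 and 11.0 CPM (log2 fold change -1.90, edgeR adjusted p = 0.00214). Gata1, the GATA factor of blood, fell by 1.87 on the log2 scale (edgeR adjusted p = 0.0432). Gata1 was at 0.934 and 1.02 CPM in Daxx-/- and at 0.234 and 0.323 CPM in H3.3 KO, and was called in 2 of the 10 fits that left out 1 library, those without a library of the mutant rescue. Col4a1 and Lrp2 were called in all 10.

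The FGF arm held 1 called gene in each direction. Spry2, a feedback inhibitor of FGF and ERK signalling, rose from 18.3 and 18.1 CPM in Daxx-/- to 48.4 and 60.6 CPM in H3.3 KO (log2 fold change 1.50, edgeR adjusted p = 0.00135). Fgfr1, an FGF receptor gene, fell from 139 and 137 to 68.5 and 77.8 CPM (0.499-fold, edgeR adjusted p = 0.00519). The call of Fgfr1 sat at the 2-fold limit and was lost without Daxx-/- replicate 1, H3.3 KO replicate 1 or H3.3 KO;mutant replicate 1, whereas Spry2 was called in all 10 fits that left out 1 library. Fgf4, the ligand that the epiblast supplies to primitive endoderm, was not called and was at 216 to 375 CPM in the 10 libraries.

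In the H3.3 rescues, wild-type H3.3 gave 0 calls in any of the 5 lists by edgeR, where 0.25% of all tested genes were called. The number of tested list genes at an unadjusted p under 0.05 was 2 of 18, 2 of 14, 0 of 22, 3 of 13 and 2 of 12, against 13.3% of all tested genes, and DESeq2 called 1 gene, among the relatives, against 1.61% of all tested genes. With the mutant, Col4a1 fell from 11.8 and 19.2 CPM in H3.3 KO to 3.82 and 5.39 CPM (log2 fold change -1.70, edgeR adjusted p = 0.0455), and it was also lower than with wild-type H3.3, at 16.9 and 23.5 CPM (log2 fold change -2.11, edgeR adjusted p = 0.0333). Smoc1, a matrix protein gene related to Sparc, fell from 48.4 and 53.3 CPM in H3.3 KO to 12.9 and 13.0 CPM with the mutant (log2 fold change -1.92, edgeR adjusted p = 0.0192). Without a call, Smoc1 was also lower with wild-type H3.3, at 13.6 and 21.4 CPM (log2 fold change -1.51, edgeR adjusted p = 0.0705). The DAXX rescue lowered it too, again without a call (-1.19, edgeR adjusted p = 0.0589). Between mutant and wild-type rescue its log2 fold change was -0.41 (edgeR adjusted p = 0.616). Col4a1 and Smoc1 were the only list genes called by edgeR in the 2 comparisons with the mutant. Over all tested genes, 0.788% (against H3.3 KO) and 0.515% (against wild-type H3.3) were called. Smoc1 was called in 6 of 10 fits that left out 1 library, and was lost without either library of H3.3 KO or of the mutant. Col4a1 was called in 2 of 10 against H3.3 KO, those without 1 Daxx-/- library, and in 4 of 10 against wild-type H3.3, those without a library of Daxx-/- or of H3.3 KO.

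**Figure D4:**
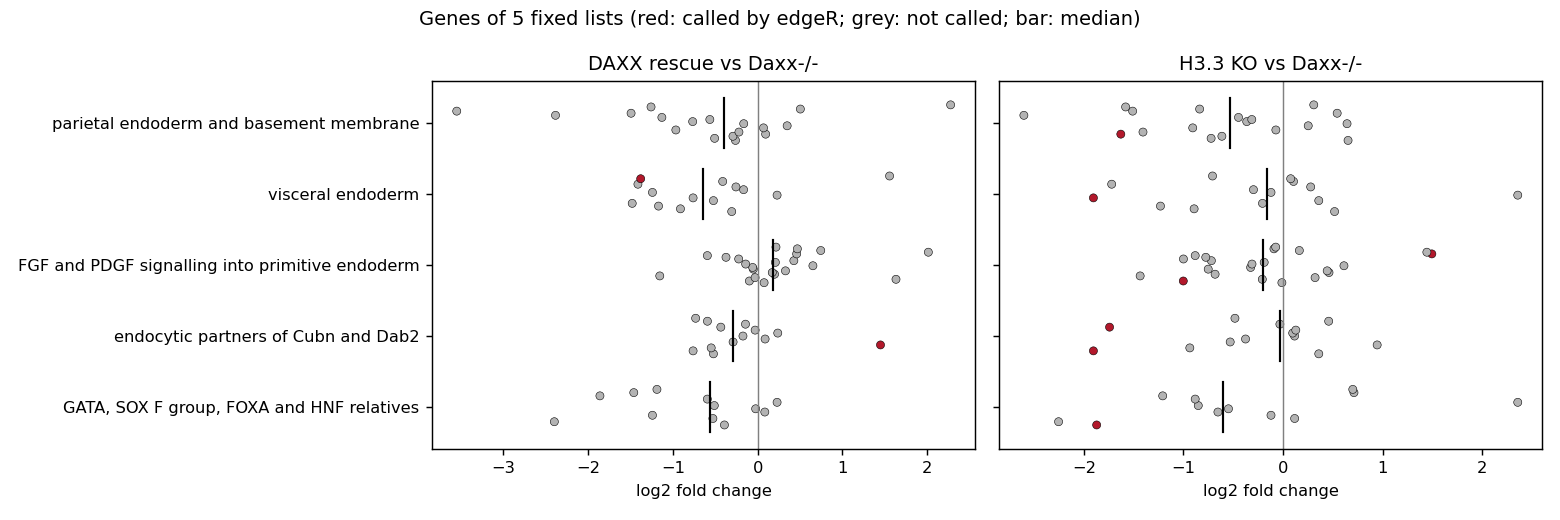
Log2 fold changes (horizontal axis) of the tested genes of 5 fixed lists (vertical axis) in the DAXX rescue (left) and between H3.3 KO and Daxx-/- (right); red points were called by edgeR, grey points were not, and black bars are list medians. In the DAXX rescue 2 points are red, Emb at -1.38 and Lrpap1 at 1.45, and between the knockout lines 7 points are red, with Lrp2 in 2 lists.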

How the data were processed

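PolyA RNA-Seq libraries were made by the authors from 5 mESC lines with a kit that does not mark strand. The table deposited by the authors holds expected counts for genes, although it is named for another unit: the columns sum to 15463625 to 21396585, and 61.4 to 67.6% of the values are whole. Bowtie was used by the authors for alignment and RSEM, at default settings, for quantification. The build is mm9 per the submitters' processing notes, and replicates were kept apart. The authors called differential expression with EBSeq.

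Here the expected counts were rounded, and a gene was kept if 2 or more libraries reached 1 CPM (13201 of 20325). One fit over all 10 libraries was made with edgeR 4.0.16 (quasi-likelihood, median-of-ratios factors) for 5 comparisons and 2 differences of changes. Calls required a change of 2-fold or more and a p below 0.05 after Benjamini-Hochberg adjustment. CPM values in the text are counts over the library total. DESeq2 1.42.0, other factors and filters, a replicate block, fits on single comparisons and leaving out each of 10 libraries were alternatives. In simulated data for the DAXX rescue (13201 genes), edgeR called 152 of 200 changed genes, and 110 of the 136 changed by at least 4-fold. The changed genes were drawn from all tested genes at any level, with no shift shared by the genes of a replicate. These rates therefore do not give the sensitivity for the members.

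The members and gene lists were chosen with earlier results of these data known. All 10 members were named, with up to 4 called genes per list by size of change, the 5 genes most like the members, and Daxx, H3f3a and H3f3b. One called list gene is counted but not reported here. Fgf4, Fgfr4, Pdgfrb, Krt7, Ascl2, Thy1, Tbx3, Apoe, Afp, Ttr, Apoa1, Klb, Pdgfc, Spry4, Dusp6 and Etv4 were named after their values were seen. Sequences are from RefSeq (GRCm38.p6), exon lengths from GENCODE M21, and protein sequences were not used here.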

Additional observations from a re-analysis of the deposited data

How the results depend on the processing

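At 2 libraries a line and levels of a few CPM, the intervals of the members other than Sparc span several-fold, so a lack of a call does not show equal levels. Sparc stayed under 2-fold in every comparison of 2 lines. Its difference of changes between DAXX and wild-type H3.3 ran from -1.06 to -0.71 on the log2 scale when 1 library was left out. Of 791 refits of the 49 log2 fold changes of tested members, 746 kept direction and side of the threshold, 6 passed the threshold and 39 changed sign.

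The call of the members moved with 1 library and with the replicate block. Leaving out 1 library at a time gave 0 to 2 called members in the DAXX rescue and in H3.3 KO against Daxx-/-, and 0 in the other 3 comparisons and both differences. The labels do not say that replicate numbers mark a shared batch, and the 2 numbers of each line are not enough to judge a pairing: correlations of the replicate differences between lines ran from -0.06 to 0.53. With the replicate number as a block, 2 of 7 members were called in H3.3 KO against Daxx-/-, Dab2 (-1.43, edgeR adjusted p = 0.0463) and Pdgfra (-1.84, edgeR adjusted p = 0.0247). Over all tested genes, 1895 of 13201 were called in this comparison with the block and 1542 without it.

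The number of genes called over the whole table moved more. In the DAXX rescue it was 143, and 233 with no filter, 531 by DESeq2, 622 with the block, 1 with the libraries of the comparison alone and 1 to 1074 when 1 library was left out (1074 without Daxx-/- replicate 1). With wild-type H3.3 it was 33, and 53, 213, 105, 350 and 2 to 61 in the same order. With the mutant it was 104, and 203, 444, 461, 50 and 2 to 231. Between mutant and wild-type rescue it was 68, and 125, 323, 234, 22 and 0 to 102, with 39 by library size alone and 38 at a mean of at least 5 CPM. Between H3.3 KO and Daxx-/- it was 1542, and 835 with the libraries of the comparison alone and 706 to 2096 when 1 library was left out. For DAXX against wild-type H3.3 it was 6, and 261 by DESeq2, 144 with the block and 1 to 187. For DAXX against the mutant it was 3, and 8 with no filter, 164 by DESeq2, 7 with the block and 1 to 34. The cause was not tested. Among genes of the fixed lists, Fgfr1 kept its call in 3 of 7 other settings, Gata1 in 3 of 6, Col4a1 in 4 of 7 (mutant against H3.3 KO) and 5 of 7 (mutant against wild-type H3.3), Emb and Lrpap1 in 6 of 7, and Lrp2, Spry2, Smoc1 and Col4a1 (H3.3 KO against Daxx-/-) in 7 of 7, with no change of sign.

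Signs turned by scaling or by fitting 1 comparison alone for values near 0. With wild-type H3.3, Gata4 (0.01) was at -0.01 with TMM factors, -0.03 by library size and -0.01 with the libraries of the comparison alone, and Pdgfra (0.01) at -0.01 with TMM factors and -0.02 by library size. Between H3.3 KO and Daxx-/-, Gata4 (0.01) was at -0.01 with the libraries of the comparison alone.

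The other signs turned when 1 library was left out, with these ranges. In the DAXX rescue they were -1.06 to 0.01 for Gata4, -0.37 to 0.94 for Hnf4a and -1.08 to 0.29 for Pdgfra. With wild-type H3.3 they were -0.28 to 0.36 for Gata4, -1.02 to 0.26 for Gata6, -0.01 to 1.43 for Hnf4a and -0.62 to 1.08 for Pdgfra. With the mutant they were -0.03 to 0.62 for Gata4, -0.41 to 1.28 for Pdgfra and -0.22 to 0.09 for Sparc. Between H3.3 KO and Daxx-/- they were -0.44 to 0.64 for Gata4, -1.15 to 1.84 for Gata6, -0.82 to 0.78 for Sox17 and -0.02 to 0.27 for Sparc. For DAXX against wild-type H3.3 they were -1.06 to 0.01 for Gata4, -2.92 to 0.06 for Gata6, -1.28 to 0.16 for Hnf4a and -1.63 to 0.28 for Pdgfra. For DAXX against the mutant they were -2.36 to 0.62 for Gata6, -1.40 to 0.21 for Sox17, -1.84 to 0.08 for Pdgfra and -1.02 to 1.29 for Dab2.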
